A study of Mus musculus with 24 samples.

Results

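DNA replication and S phase genes were followed in B cell lymphomas of the mouse spleen that grew with or without T cells. The 56 genes were chosen by name for their role in copying the genome, with earlier results of these data known, and all 56 are among the 11140 genes of the deposited count table. All 56 also passed the filter on low counts that left 11020 genes for testing. The series holds 24 samples of purified B lymphoma cells from spleens of C57BL/6 mice. The 12 T cell sufficient lymphomas have the genotype Bcl6Tg/+, and the 11 T cell deficient lymphomas have the genotype Bcl6Tg/+CD3Epsilon-/-. Both groups therefore carry the Bcl6 transgene, and the groups differ by the loss of CD3 epsilon, a signalling chain of the T cell receptor that developing T cells need. The remaining sample is a repeat library of T cell sufficient lymphoma 1 and was not analysed here by itself. The sources used here do not give the promoter that drives the transgene, the age of the mice or any treatment. The labels place the libraries in 2 sequencing runs, with 7 sufficient and 5 deficient lymphomas in run 1 and 5 sufficient and 6 deficient lymphomas in run 2. The labels do not say that each lymphoma came from its own animal, so p-values measure the spread between these samples.

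DNA replication starts at origins, where the origin recognition complex, CDC6 and CDT1 load the ring-shaped MCM2-7 helicase onto DNA in G1 phase. The kinase CDC7-DBF4 and cyclin-dependent kinases then join CDC45 and the GINS complex to the helicase, and primase, the replicative polymerases, the PCNA clamp and its loader follow at each fork. Most of these genes are transcribed from late G1 phase under the control of E2F factors, so their mRNA is a customary sign of proliferating cells, germinal centre B cells and B lymphomas among them.

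Total counts ran from 7.58 M to 30.6 M per library (M, mega), with a median of 14.5 M in the sufficient and 21.6 M in the deficient group. Cd3e, the gene disrupted in the deficient mice, was at a median of 0.874 CPM in the sufficient and 1.82 CPM in the deficient lymphomas (adjusted p = 0.179, edgeR's quasi-likelihood test). Purified B cells hardly express it, so its level does not check the labels, and reads inside and outside the disrupted stretch were not separated. Defining B cell markers were detected in every library. Ms4a1, which encodes the surface antigen CD20, ran from 1052 to 3409 CPM in the sufficient and from 1120.1 to 2924 CPM in the deficient group, and Cd79a, a chain of the B cell receptor, from 479 to 1781 CPM and from 572 to 1146 CPM. Cd79a, Cd22 and Cd79b were lower in the deficient lymphomas by the test, and Ms4a1, Pax5 and Ebf1 were not called. The 11 monocyte and macrophage markers summed to between 174 and 1825 CPM in the sufficient and between 80.2 and 371 CPM in the deficient lymphomas, and 2 of them, Itgam and Lyz2, were called lower. Of the 8 T cell markers tested, Cd2 alone was called, lower in the deficient group, and their sums overlapped (240 to 838 CPM against 207 to 882 CPM). Most of that sum was Lck and Cd2, while Cd3e, Cd3g, Cd4 and Thy1 had medians below 3 CPM in both groups. Of the 7 erythroid markers Tfrc was called higher, none of the 3 neutrophil markers was called, and 1 of 4 plasma cell markers (Sdc1) and 1 of 2 stromal markers (Col1a1) were called lower. The erythroid sums were 115 to 384 CPM (median 243) in the sufficient and 204 to 395 CPM (median 316) in the deficient group. In the same order, neutrophil sums were 0.132 to 68.4 and 1.14 to 143 CPM. Plasma cell sums were 585 to 3371 and 742 to 2929 CPM, and stromal sums 19.8 to 250 and 13.9 to 145 CPM. The part of these cell types in the results was not tested.

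Replication genes rose broadly and modestly in the T cell deficient lymphomas. Of the 56 genes, 33 were called higher at an adjusted p under 0.05 and 0 were called lower, in a table where 10.6% of the 11020 genes tested were called higher and 11.7% lower. DESeq2 and limma-voom also called 0 of the 56 lower. An unadjusted p under 0.05 was reached by 41 of the 56, all but Rfc2 in the direction of higher values, against 36.1% of all genes. The count of 33 fell to 17 in a fit with no run term, in which 7.13% of all genes were called higher. The log2 fold change was positive for 53 of the 56, against 49.2% of all genes. The median log2 fold change of the 56 genes was 0.42, and that of all genes tested was -0.01. The change was small for most genes: 10 of the 33 passed 1.5-fold and 1, the nuclease and helicase gene Dna2, passed 2-fold. In these bulk samples a change in the share of S phase cells and a change in mRNA per cell cannot be told apart. Rises were found in every role but that of the single-strand binding protein RPA, of whose 3 genes none was called.

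**Figure D1:**
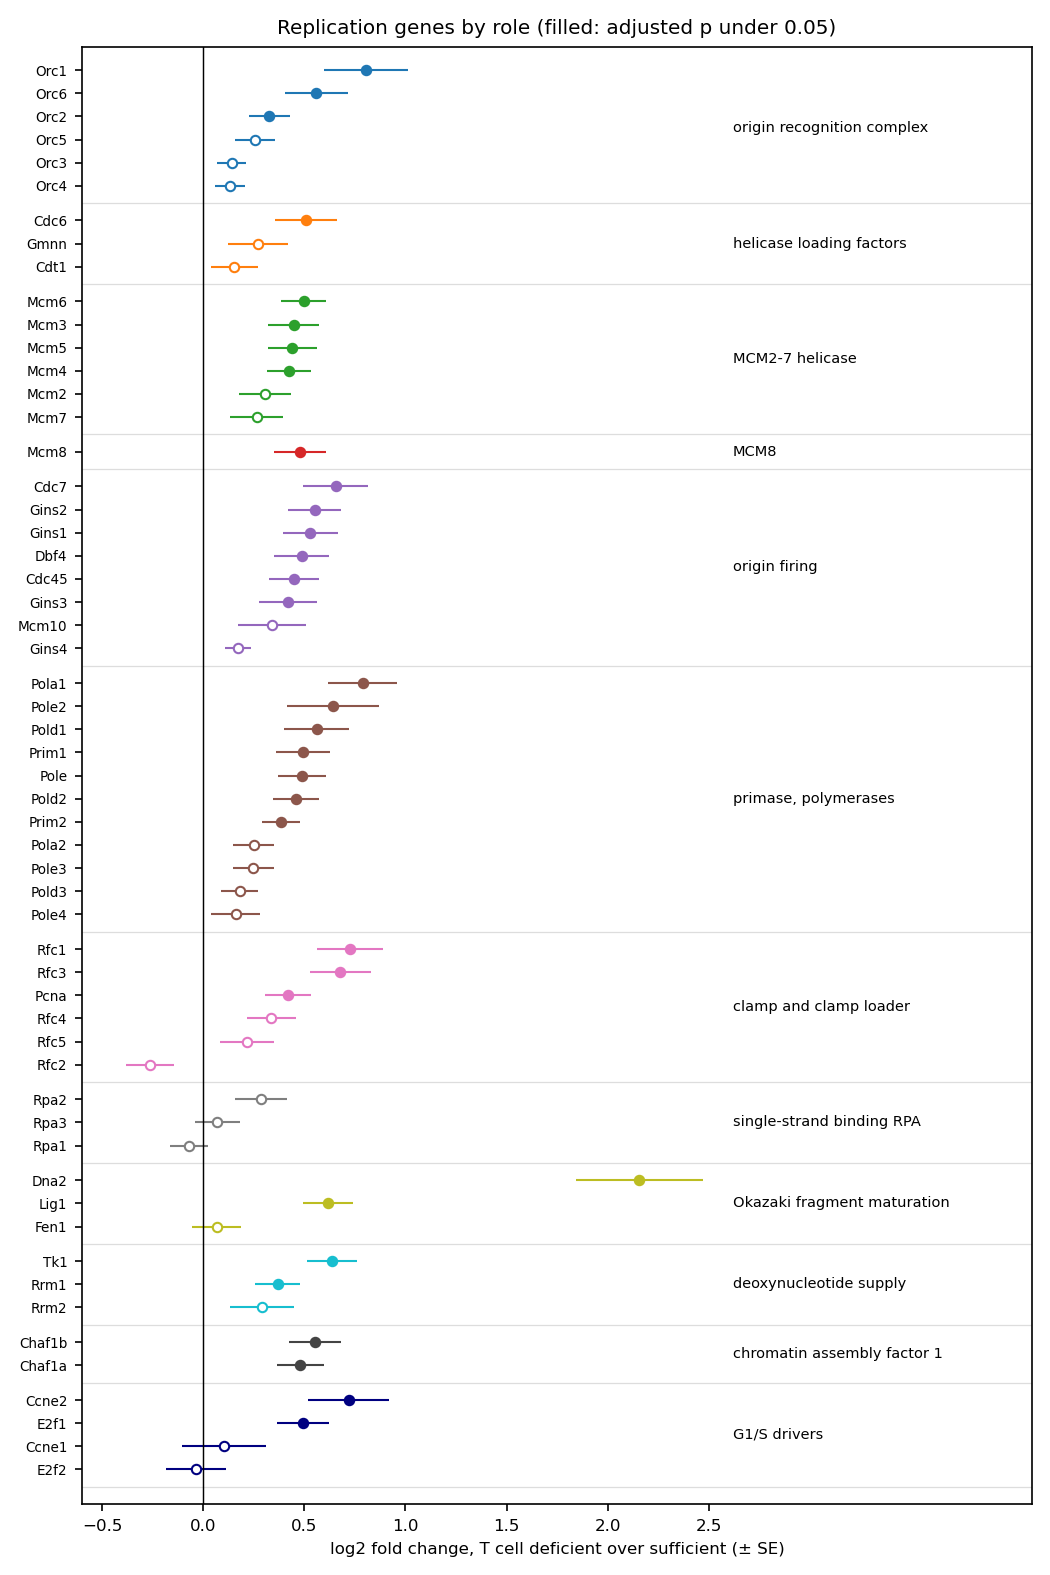
Log2 fold change of each of the 56 replication genes in T cell deficient over T cell sufficient lymphomas (x axis, with its standard error), grouped by role on the y axis, with filled points for genes at an adjusted p under 0.05. Most points lie between 0 and 0.8, and Dna2 stands alone at 2.16.

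Because most of these genes are known targets of E2F, promoters of the 56 genes were searched for E2F motifs. The search used RefSeq's windows of 250 bases before to 50 bases after each start (GRCm38.p6). The table held promoters for 47 of the 56 genes, 58 promoters in all. The motifs searched on both strands were TTTGGCGC, TTTCGCGC, TTTCCCGC and TTTGCCGC. At least 1 of them was found in 19 of the 58 promoters (32.8%), against 4.02% of the 10892 promoters of genes in the count table and 2.26% of all 32851 promoters. In the 250 bases before the start alone the shares were 19%, 3.35% and 1.86%. TTTCCCGC was found 10 times, TTTGGCGC 9 times and TTTCGCGC 6 times, and TTTGCCGC was not found. These counts are per window, and the TTTCCCGC of Pole4 lies in 2 overlapping windows and is counted in each. By comparison, CCAAT was found in 50% of the 58 promoters, against 37.9% of those of genes in the count table and 37.4% of all promoters. The CHR motif TTTGAA, a feature of genes expressed in G2 and M phase, was found in 15.5%, against 12% and 17.9%. In the mitosis genes described further on, the order was the other way round, with an E2F motif in 9.09% and TTTGAA in 72.7% of 11 promoters. A match describes the letters and does not show binding. The lack of an exact match in these windows does not show the lack of an E2F site.

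Stretches of 10 promoters are given to show where the motifs lie in helicase, loading, polymerase and clamp loader genes that rose (Mcm6, Mcm5, Cdc6, Orc1, Pola1, Gins3 and Rfc3), in genes that carry a motif and were not called (Mcm7 and Orc3) and in the gene with the largest change, whose window holds none (Dna2). Each is written 5′ to 3′ on the strand of its gene, ends before RefSeq's transcription start, and has the motif on either strand in capitals. By GENCODE's gene positions, the stretches of Cdc6, Gins3, Mcm7 and Rfc3 lie within the gene, and those of Orc1 and Dna2 reach into it. In Mcm6 and Mcm5, TTTGGCGC and TTTCGCGC on opposite strands overlap by 4 bases and share 1 run of capitals, and Mcm6 has a further TTTGGCGC nearer to its start.
Mcm6, chr1:128359725-128359835, minus strand: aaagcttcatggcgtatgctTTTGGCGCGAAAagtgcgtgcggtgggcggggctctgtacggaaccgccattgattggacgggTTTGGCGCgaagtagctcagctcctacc
Mcm5, chr8:75109336-75109387, plus strand: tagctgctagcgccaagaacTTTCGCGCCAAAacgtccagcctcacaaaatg
Cdc6, chr11:98907993-98908040, plus strand: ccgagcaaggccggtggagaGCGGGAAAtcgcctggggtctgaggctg
Orc1, chr4:108579407-108579453, plus strand: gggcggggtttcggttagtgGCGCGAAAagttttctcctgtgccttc
Pola1, chrX:93632266-93632313, minus strand: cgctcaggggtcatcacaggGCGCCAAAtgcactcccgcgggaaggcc
Gins3, chr8:95633498-95633545, plus strand: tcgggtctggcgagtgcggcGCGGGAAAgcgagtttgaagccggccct
Rfc3, chr5:151651209-151651238, minus strand: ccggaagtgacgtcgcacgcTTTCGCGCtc
Mcm7, chr5:138172021-138172068, minus strand: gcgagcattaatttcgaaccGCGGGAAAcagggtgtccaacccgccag
Orc3, chr4:34614956-34615003, minus strand: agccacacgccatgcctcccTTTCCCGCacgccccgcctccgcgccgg
Dna2, chr10:62946929-62947028, plus strand: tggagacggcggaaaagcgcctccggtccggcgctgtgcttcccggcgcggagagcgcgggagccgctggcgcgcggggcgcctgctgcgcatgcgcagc
Genes with and without an exact match to a motif both rose. Of the 18 genes with a motif 12 were called higher, with a median log2 fold change of 0.46, and of the 29 genes without one 15 were called higher, with a median of 0.34. Of the 9 genes that the promoter table does not hold, 6 were called higher, with a median of 0.42. The difference between these sets was not tested.

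Among the 6 subunits of the origin recognition complex, which marks the sites where replication can start, Orc1, Orc6 and Orc2 rose and Orc3, Orc4 and Orc5 were not called. Orc1 is the subunit whose level is known to follow the cell cycle, and it had the largest log2 fold change of the 6, 0.80 ± 0.21 (SE, 12 against 11 libraries; adjusted p = 0.00889). Orc1 was at 7.43 CPM in the lowest, 19.5 in the median and 33.7 in the highest sufficient lymphoma, against 21.7, 29.3 and 44 CPM in the deficient ones. The groups overlapped: 8 of the 12 sufficient lymphomas lay below every deficient one, and 2 of the 11 deficient lymphomas lay above every sufficient one. The log2 fold changes of Orc6 and Orc2 were 0.56 ± 0.16 (adjusted p = 0.0139) and 0.33 ± 0.10 (adjusted p = 0.026). The call of Orc2 was lost in 5 of 12 alternative settings, the replicate block among them, and without deficient lymphoma 7. The log2 fold changes of Orc5, Orc3 and Orc4 ran from 0.13 to 0.26 with adjusted p from 0.0621 to 0.216. Orc2 shares exons or introns with Nif3l1 and Orc6 with Vps35, and as the strand setting of the counting is not stated, reads of such overlapping genes cannot be told apart. In all, 13 of the 56 members overlap another of the genes tested.

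Of the factors that load the helicase, Cdc6 rose and the other members, Cdt1 and its inhibitor geminin (Gmnn), were not called. Cdc6, an ATPase that works with the origin recognition complex, had a log2 fold change of 0.51 ± 0.16 (adjusted p = 0.023). Cdt1 was at 58.6, 93.7 and 112 CPM in the lowest, median and highest sufficient lymphoma and at 75.1, 104 and 148 CPM in the deficient ones, a log2 fold change of 0.15 ± 0.12 (adjusted p = 0.357). For Gmnn the values were 32.4, 68.6 and 128 CPM in the sufficient and 37.1, 81.5 and 124 CPM in the deficient group, a log2 fold change of 0.27 ± 0.15 (adjusted p = 0.196). For both genes the groups overlapped, with 1 deficient lymphoma above every sufficient one for Cdt1 and 0 for Gmnn.

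The MCM2-7 helicase, the motor that unwinds DNA at the fork, was higher for 4 of its 6 subunits, and the log2 fold changes of all 6 lay between 0.26 and 0.50. Mcm6 was at 293, 584 and 726 CPM in the lowest, median and highest sufficient lymphoma and at 480, 749 and 980 CPM in the deficient ones, a log2 fold change of 0.50 ± 0.11 (adjusted p = 0.00404). The groups overlapped, with 6 of 11 deficient lymphomas above every sufficient one. Mcm3 was at 221, 395 and 493 CPM against 316, 487 and 637 CPM (0.45 ± 0.12, adjusted p = 0.0141). Mcm5 was at 214, 428 and 597 CPM against 324, 544 and 687 CPM (0.44 ± 0.12, adjusted p = 0.0123). Mcm4 was at 209, 314 and 390 CPM against 276, 397 and 525 CPM (0.42 ± 0.11, adjusted p = 0.00883). For these 3 subunits 5 or 6 of the 11 deficient lymphomas lay above every sufficient one, and the rest lay within the sufficient range. Mcm2 and Mcm7 each had their highest value in a sufficient lymphoma, and neither was called. For Mcm2 the values were 222, 379 and 618 CPM in the sufficient and 284, 476 and 554 CPM in the deficient lymphomas (0.30 ± 0.13, adjusted p = 0.094). For Mcm7 they were 143, 317 and 592 CPM and 235, 382 and 452 CPM (0.26 ± 0.13, adjusted p = 0.155). Mcm7 overlaps Ap4m1 and Cops6. Mcm8, a related helicase gene that is not part of the MCM2-7 ring, rose as well, by 0.48 ± 0.13 on the log2 scale (adjusted p = 0.0123).

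**Figure D2:**
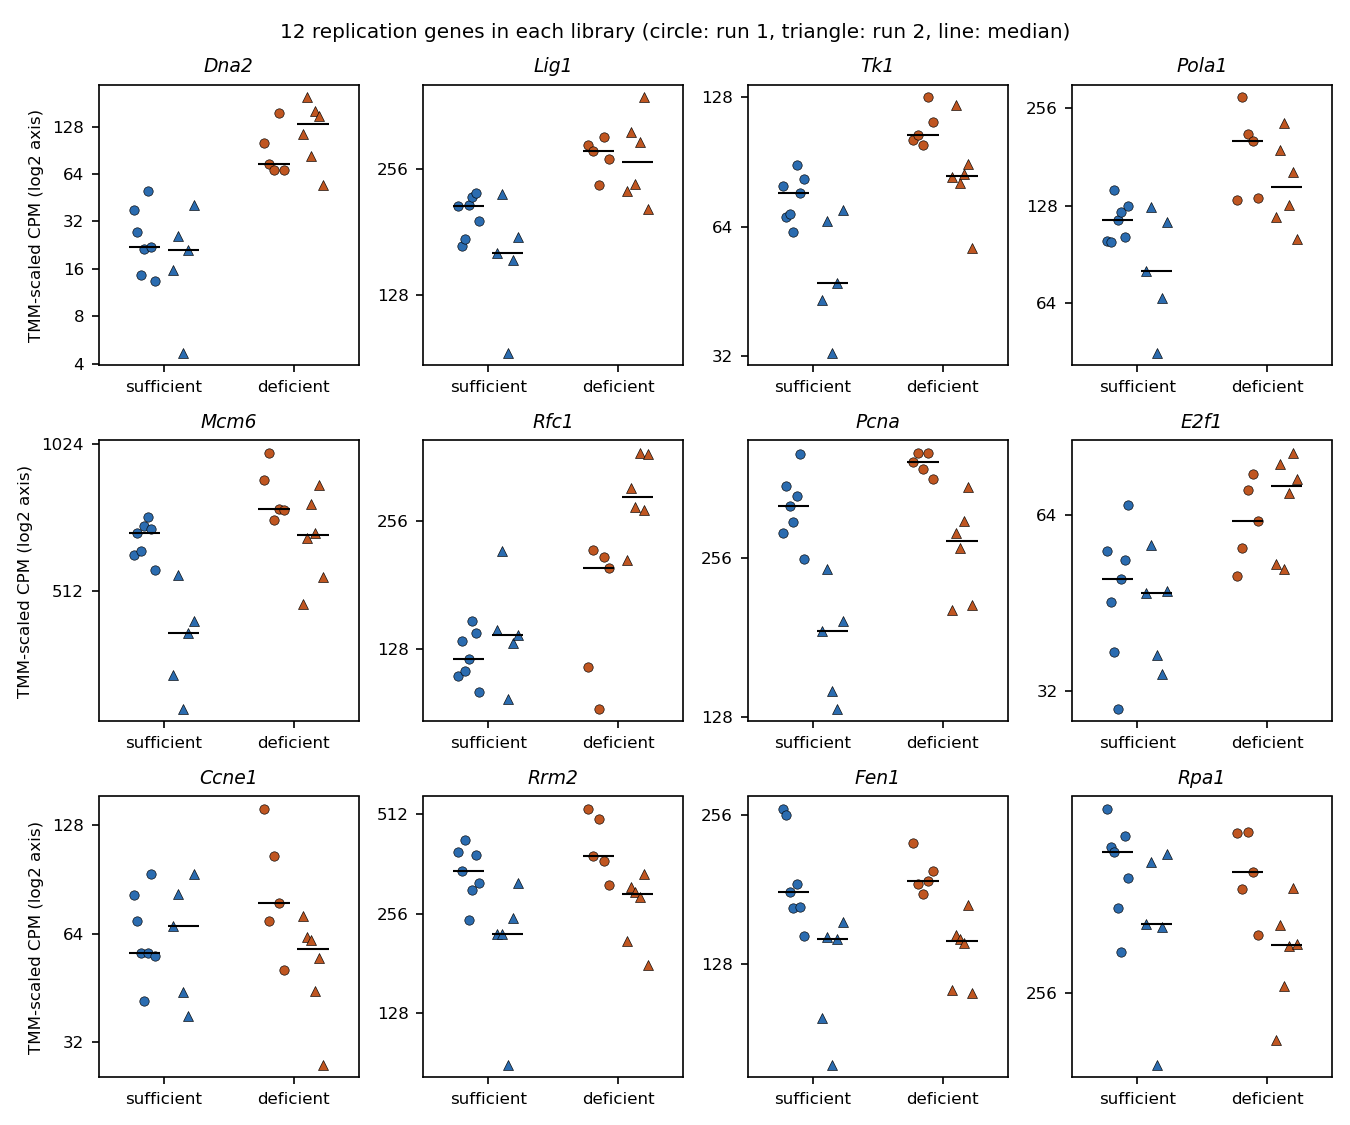
TMM-scaled CPM of 12 replication genes in each library (y axis, log2 scale) for T cell sufficient and T cell deficient lymphomas (x axis), with circles for run 1, triangles for run 2 and a line at the median of each run. Dna2 is the only one of the 12 whose groups do not overlap, and the run 2 values of Pcna lie below those of run 1 in each group.

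The genes that fire origins and complete the active helicase rose for 6 of 8 members. Cdc7, the catalytic subunit of the kinase that triggers firing, had a log2 fold change of 0.66 ± 0.16 (adjusted p = 0.00709), and its activating subunit Dbf4 one of 0.49 ± 0.13 (adjusted p = 0.0136). Cdc45, which joins the helicase when it is activated, rose by 0.45 ± 0.12 (adjusted p = 0.0136). Of the GINS complex, the other activator of the helicase, Gins1, Gins2 and Gins3 rose and Gins4 was not called (0.17 ± 0.06, adjusted p = 0.0594). Gins2 was at 11.8, 30.2 and 46.6 CPM in the lowest, median and highest sufficient lymphoma and at 18.1, 35.3 and 56.2 CPM in the deficient ones, a log2 fold change of 0.55 ± 0.13 (adjusted p = 0.0058). These pooled ranges overlapped widely, and Gins2 was also the member with the largest fall between runs. Gins2 overlaps Gse1 in the genome. The call of Gins3 (0.42 ± 0.14, adjusted p = 0.0383) was lost in 11 of the 23 fits that left out 1 library. Mcm10, which stabilises the active helicase, was not called (0.34 ± 0.17, adjusted p = 0.15).

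Primase and the replicative polymerases rose for 7 of 11 genes, with all 11 log2 fold changes positive. Pola1, the catalytic subunit of polymerase alpha that extends the primer, was at 45, 108 and 143 CPM in the lowest, median and highest sufficient lymphoma and at 101, 163 and 277 CPM in the deficient ones. Its log2 fold change was 0.79 ± 0.17 (adjusted p = 0.00307), and 6 of 11 deficient lymphomas lay above every sufficient one. Prim2, the large primase subunit, was at 24, 39.7 and 45.3 CPM against 25.7, 48.9 and 57.7 CPM, a log2 fold change of 0.38 ± 0.09 (adjusted p = 0.00633). Here 7 of the 11 deficient lymphomas lay above every sufficient one, and the lowest deficient lymphoma lay close to the lowest sufficient one. Pole, the catalytic subunit of the leading strand polymerase epsilon, was at 78.3, 98.9 and 152 CPM against 112, 135 and 209 CPM, a log2 fold change of 0.49 ± 0.12 (adjusted p = 0.0062). The sufficient group held the lower end, with 8 of its 12 lymphomas below every deficient one. The catalytic subunit of the lagging strand polymerase delta, Pold1, and its partner Pold2 rose by 0.56 and 0.46, and the primase gene Prim1 by 0.49. The call of Pole2 (0.64 ± 0.23, adjusted p = 0.0456) was lost in 18 of the 23 fits that left out 1 library. Pola2, Pole3, Pold3 and Pole4 had log2 fold changes from 0.16 to 0.25 and adjusted p from 0.0786 to 0.36.

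Pcna, the sliding clamp that holds the polymerases on DNA, was at 133, 271 and 404 CPM in the lowest, median and highest sufficient lymphoma and at 204, 349 and 404 CPM in the deficient ones. Its log2 fold change was 0.42 ± 0.11 (adjusted p = 0.0115), and the upper ends of both groups met. Pcna has 2 pseudogenes by name in the annotation, with which the counting could share reads. Of the clamp loader genes, Rfc1 and Rfc3 rose and Rfc2, Rfc4 and Rfc5 were not called. Rfc1, the large subunit that opens the clamp, was at 98, 133 and 218 CPM against 92.9, 219 and 369 CPM, a log2 fold change of 0.73 ± 0.16 (adjusted p = 0.00418). The lowest value of all was in a deficient lymphoma, and 6 of 11 deficient lymphomas lay above every sufficient one. Rfc3, a small subunit, was at 26.4, 52.8 and 77.3 CPM against 47.1, 76.1 and 106 CPM, a log2 fold change of 0.68 ± 0.15 (adjusted p = 0.00369), with 5 of 11 deficient lymphomas above every sufficient one. Rfc2 was the member with the lowest log2 fold change, -0.26 ± 0.12 (adjusted p = 0.113), and overlaps Lat2 in the genome. The values of the 3 uncalled subunits were thus on both sides of 0, with 0.34 for Rfc4 and 0.22 for Rfc5.

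RPA, the trimer that coats the single strands behind the helicase, was the role in which no gene passed the test. Rpa1, its large subunit, had a log2 fold change of -0.07 ± 0.09, Rpa2 one of 0.29 ± 0.13 and Rpa3 one of 0.07 ± 0.11, with adjusted p of 0.619, 0.109 and 0.683. Whether RPA differs from the other roles was not tested.

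Dna2 had the largest change of the 56 genes. It encodes a nuclease and helicase that trims long flaps from Okazaki fragments and resects broken ends and stalled forks, and it lies at chr10:62947026-62974185 on the plus strand of GRCm38. Dna2 was at 4.71, 21.6 and 49.7 CPM in the lowest, median and highest sufficient lymphoma and at 54.3, 100 and 196 CPM in the deficient ones. All 11 deficient lymphomas lay above all 12 sufficient ones, a separation that 0.0907% of the genes tested showed in this direction (10 genes) and no other member did. The sufficient lymphomas had a mean of 24.6 ± 12.8 CPM (SD, n = 12) and the deficient lymphomas one of 111 ± 47.1 CPM (SD, n = 11). The log2 fold change was 2.16 ± 0.32 (4.46-fold, adjusted p = 0.000208), and leaving out any 1 library kept it between 2.02 and 2.29 with adjusted p of at most 0.000661. It was separate in each run: 13.3 to 49.7 CPM against 67.6 to 155 CPM in run 1, and 4.71 to 40.8 CPM against 54.3 to 196 CPM in run 2. Without Dna2 the median log2 fold change of the other 55 genes was 0.42.

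No other annotated gene overlaps Dna2. Of its neighbours in the count table, Rufy2, which starts after its end on the same strand and overlaps Hnrnph3, was also called higher, from 19.3 ± 12.8 to 39.6 ± 21.2 CPM (SD; log2 fold change 0.93 ± 0.16, adjusted p = 0.000743). Ccar1, farther before it on the minus strand, was higher by 0.37 ± 0.07 (adjusted p = 0.00131). The gene just before Dna2, Slc25a16, was not called (0.16 ± 0.12, adjusted p = 0.332), nor was Hnrnph3 (0.38 ± 0.19, adjusted p = 0.152). Whether the changes of Dna2 and its neighbours are linked was not tested.

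Of the remaining genes of Okazaki fragment maturation, Lig1 rose and Fen1 was not called. Lig1, the ligase that seals the fragments, was at 93.4, 184 and 224 CPM in the lowest, median and highest sufficient lymphoma and at 206, 283 and 378 CPM in the deficient ones, a log2 fold change of 0.62 ± 0.12 (adjusted p = 0.00182). The overlap was small, with 10 of 11 deficient lymphomas above every sufficient one. Fen1, the flap nuclease that trims the short flaps, had a log2 fold change of 0.07 ± 0.12 (adjusted p = 0.723) and overlaps Tmem258.

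Of the genes that supply deoxynucleotides, Tk1 and Rrm1 rose and Rrm2 was not called. Tk1, the S phase thymidine kinase of the salvage pathway, was at 32.6, 67.9 and 89.1 CPM in the lowest, median and highest sufficient lymphoma and at 57.2, 99.2 and 128 CPM in the deficient ones. Its log2 fold change was 0.64 ± 0.12 (adjusted p = 0.00158), the second smallest p of the 56 genes, and 7 of 11 deficient lymphomas lay above every sufficient one. Rrm1, the large subunit of ribonucleotide reductase, rose by 0.37 ± 0.11 (adjusted p = 0.0214), while its partner Rrm2 was at 0.29 ± 0.16 (adjusted p = 0.196). Tk1 overlaps Afmid in the genome.

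Both subunits of chromatin assembly factor 1, which places histones on new DNA, rose. Chaf1b was at 16.3, 37.6 and 51.9 CPM in the lowest, median and highest sufficient lymphoma and at 34.5, 49 and 65.4 CPM in the deficient ones, a log2 fold change of 0.55 ± 0.13 (adjusted p = 0.00538). Chaf1a was at 59.4, 97.8 and 135 CPM against 95.8, 124 and 167 CPM, a log2 fold change of 0.48 ± 0.12 (adjusted p = 0.00664). In both genes the ranges overlapped in the middle: 5 deficient lymphomas for Chaf1b and 4 for Chaf1a lay above every sufficient one. Chaf1a overlaps Ubxn6 in the genome.

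Of the 4 drivers of the G1 to S transition, Ccne2 and E2f1 rose and Ccne1 and E2f2 were not called. Ccne2, which encodes a cyclin that activates CDK2, was at 7.72, 18.2 and 28.1 CPM in the lowest, median and highest sufficient lymphoma and at 16.1, 26.9 and 36.1 CPM in the deficient ones, a log2 fold change of 0.72 ± 0.20 (adjusted p = 0.0141). E2f1, an activator of S phase transcription, was at 29.9, 47.4 and 66.6 CPM against 50.4, 69.8 and 81.7 CPM, a log2 fold change of 0.49 ± 0.13 (adjusted p = 0.0097). For E2f1, 6 of 11 deficient lymphomas lay above every sufficient one and 8 of 12 sufficient ones below every deficient one, and for Ccne2 the overlap was wider. The other cyclin E gene, Ccne1, was at 37.8, 62 and 93.9 CPM against 27.7, 62.6 and 142 CPM (0.10 ± 0.21, adjusted p = 0.751). E2f2, an activator like E2f1, was at 101, 213 and 313 CPM against 160, 196 and 264 CPM (-0.04 ± 0.15, adjusted p = 0.888). The deficient values of Ccne1 spanned more than the whole sufficient range, and those of E2f2 lay within it. The sign of both values depended on the libraries used: Ccne1 was at -0.03 without deficient lymphoma 7, and E2f2 at 0.05 without sufficient lymphoma 12. Ccne2 overlaps Ints8.

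Levels were compared between genes as CPM per kilobase of merged exons. The highest were Mcm6, Pcna, Mcm5, Rrm2 and Mcm3, with means in the sufficient lymphomas from 118 ± 31 (Mcm6) to 100.2 ± 25 CPM per kb (Mcm3; SD, n = 12). These 5 neighbours in the order did not differ beyond their spread. Dna2 was the lowest of all 56 in the sufficient lymphomas, at 4.18 ± 2.18 CPM per kb, next to Ccne2 (4.72 ± 1.84) and Orc1 (5.43 ± 2.4), which it did not differ from beyond the spread. In the deficient lymphomas Dna2 was at 18.9 ± 8.01 CPM per kb, against 7.65 ± 1.86 for Ccne2 and 8.66 ± 2.02 for Orc1. Merged exons can be longer than the transcripts in use, so the order between genes is approximate.

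**Figure D3:**
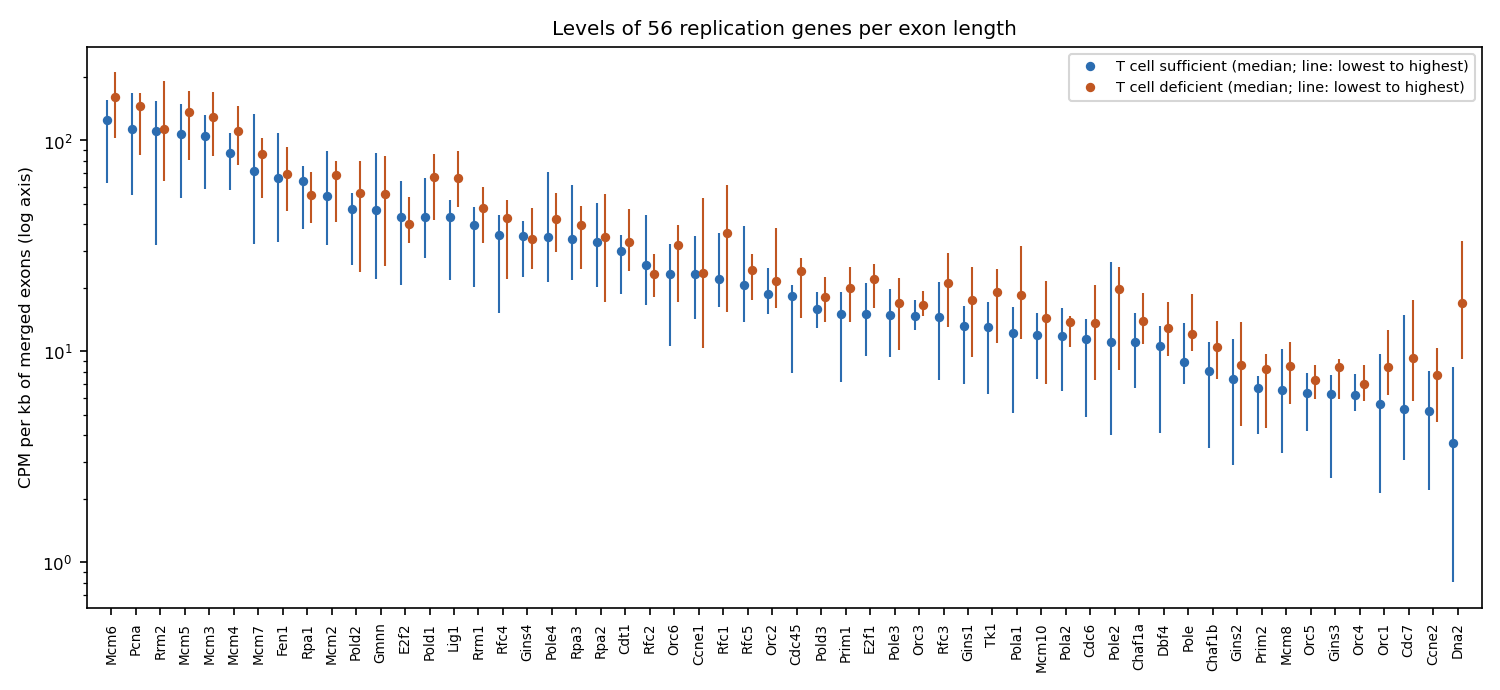
Level of each of the 56 replication genes in CPM per kb of merged exons (y axis, log scale), with points at the median and lines from the lowest to the highest library for T cell sufficient and T cell deficient lymphomas. The helicase genes, Pcna and Rrm2 sit at the top, and the ranges of the groups overlap for each gene but Dna2.

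The members' level moved with the sequencing run as well as with the group. In the same fit, 32 of the 56 genes were called lower in run 2 than in run 1 and 2 were called higher, against 17.7% and 18.6% of all genes tested. Gins2 fell by 0.85 on the log2 scale and Pcna by 0.69, while Cdc7 and Rfc1 were higher in run 2, by 0.87 and 0.53. Of the 33 genes that rose with the group, 18 were lower in run 2, and all 33 had a positive log2 fold change in either run. The run cannot be told apart from differences between the lymphomas placed in it.

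**Figure D4:**
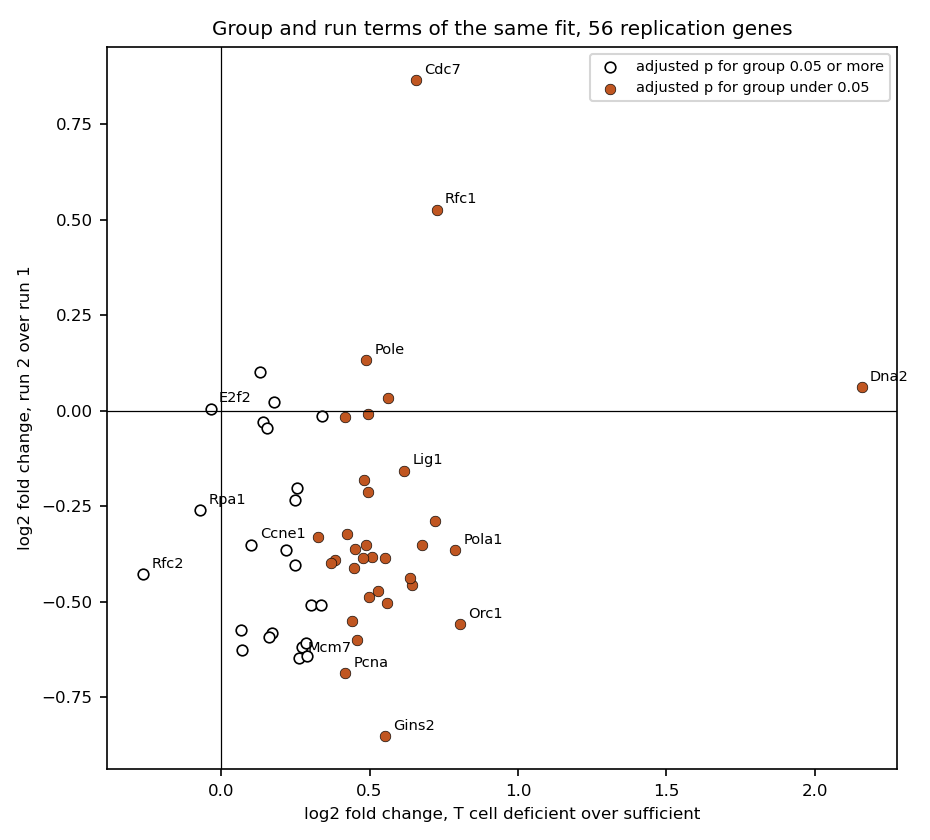
Log2 fold change of the 56 replication genes between runs (y axis, run 2 over run 1) against that between groups (x axis, T cell deficient over sufficient), both from one fit, with filled points for genes at an adjusted p under 0.05 for the group. Most genes lie right of 0 and below 0, and Cdc7 and Rfc1 lie highest on the y axis.

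Within single runs fewer genes passed the test. In run 1, 0 of the 56 genes were called, as were 0% of the 11064 genes tested there. By edgeR's unadjusted p under 0.05 the count was 31 of 56, against 16.6% of all genes, and the median log2 fold change was 0.34 with 51 of 56 positive. In run 2, 8 of the 56 were called higher, against 5.69% of the genes tested there, and 0 lower, against 6.61%. These 8 were Orc1, Mcm6, Pold1, Rfc1, Rfc3, Lig1, Dna2 and E2f1. The median log2 fold change in run 2 was 0.52, with 52 of 56 positive. The difference of the group effect between runs was called for 0 of the 56 genes and 0% of all 11020, with an unadjusted p under 0.05 for 0 of the 56 and 6.56% of all genes. The group effect was the higher in run 2 for 46 of the 56 genes, against 50.1% of all genes, without any of these differences passing the test. In run 1 all deficient lymphomas lay above all sufficient ones for 7 genes (Cdc7, Gins3, Prim2, Pole, Lig1, Dna2 and Tk1; 1.22% of all genes), and in run 2 for Orc1 and Dna2 (4.28% of all genes).

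Taken per library as the mean log2 CPM of the 56 genes, the groups were apart in run 1 (6.34 to 6.62 in the sufficient and 6.73 to 6.96 in the deficient lymphomas) and overlapped in run 2 (5.59 to 6.45 and 6.24 to 6.92). Sufficient lymphoma 10 had the lowest value of all 23 libraries for 34 of the 56 genes, and deficient lymphoma 7 the highest for 18. Without sufficient lymphoma 10, 31 of the 56 genes were called higher and their median log2 fold change was 0.39. The spread within a group and run, as the SD of log2 CPM, had a median over the 56 genes of 0.33 in the sufficient and 0.27 in the deficient lymphomas, against 0.39 and 0.34 over all genes.

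**Figure D5:**
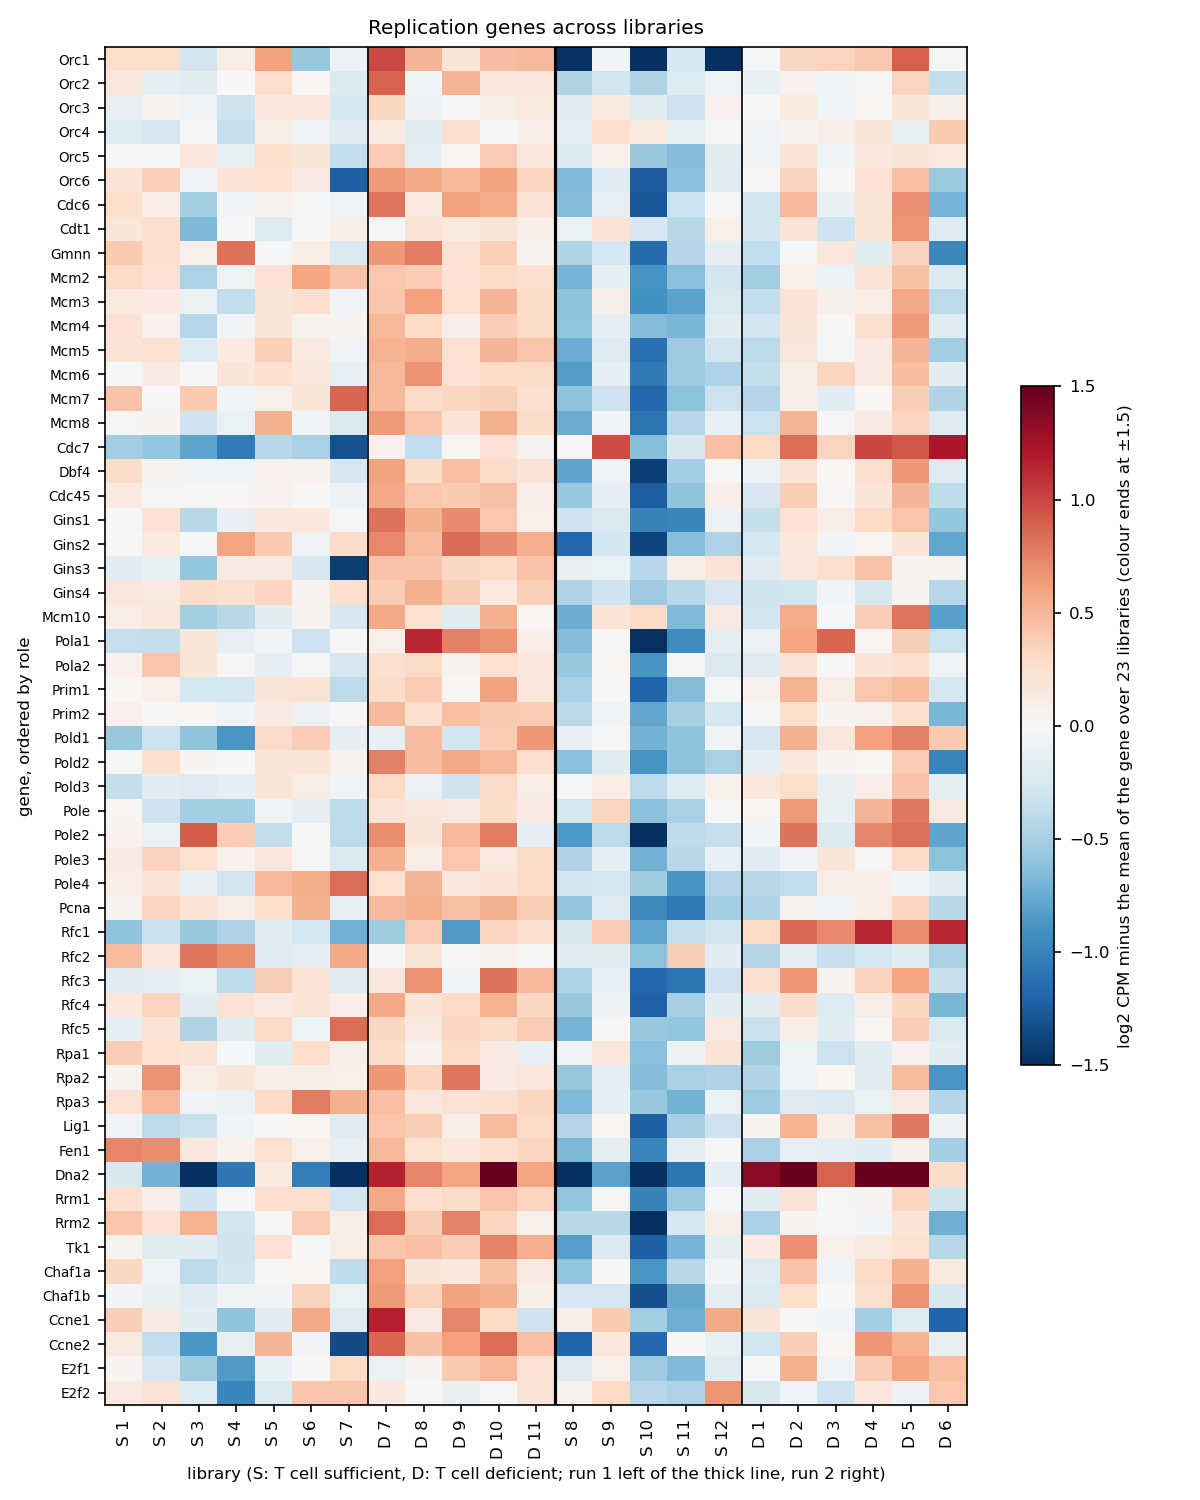
Log2 CPM of the 56 replication genes (rows, ordered by role) in 23 libraries (columns, run 1 left of the thick line and run 2 right of it, S for T cell sufficient and D for T cell deficient), as the difference from the mean of each gene over the libraries. Sufficient lymphoma 10 is low across most rows, and every deficient library is above every sufficient one in the row of Dna2.

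Xist and Y-linked transcripts were both above 5 CPM in 5 libraries, sufficient lymphomas 5, 6, 9, 10 and 11. Without these 5 libraries 27 of the 56 genes were called higher, against 8.71% of the genes tested there, and Rfc2 was called lower (log2 fold change -0.38, adjusted p = 0.0166). The genes no longer called were Orc2, Orc6, Cdc6, Cdc45, Gins3 and Pole2. What these 5 libraries hold was not tested. Of the other sufficient lymphomas, Xist alone was above 5 CPM in 1, 3, 8 and 12, Y-linked transcripts alone in 4 and 7, and neither in 2. Among the deficient lymphomas Xist alone was above 5 CPM in 2, 5 and 10, and Y-linked transcripts alone in all the rest. Some libraries lay close to this cutoff, so the sorting depends on it. Xist was at 5.38 and 5.64 CPM in sufficient lymphomas 5 and 6, which passed it. Y-linked transcripts were at 4.86 CPM in sufficient lymphoma 8 and 4.6 CPM in deficient lymphoma 2, just below it, beside Xist at 1186 and 1056.5 CPM. By this cutoff Xist and Y-linked transcripts were unevenly spread over the groups, and the part of sex in the results was not tested.

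Genes that act beside the replication machinery were read from 5 further lists. Of all genes tested, 10.6% were called higher and 11.7% lower. Of 19 genes of fork protection and the S phase checkpoint, 10 rose and 0 fell, with a median log2 fold change of 0.41. They include Ticrr, which helps to fire origins (0.72 ± 0.13, adjusted p = 0.00104), Topbp1, which activates the checkpoint kinase ATR (0.48 ± 0.09, adjusted p = 0.00114), and Clspn, which links ATR to CHEK1 (0.71 ± 0.14, adjusted p = 0.00153). Of 22 E2F factors, pocket proteins and S phase kinases and their regulators, 14 rose and 1 fell. The one that fell is the CDK inhibitor gene Cdkn1b, while Cdkn1a, the other CDK inhibitor gene of the list, rose (1.15 on the log2 scale, adjusted p = 0.0416); both were named after their values were seen. E2f8 and E2f7, both repressors of E2F targets, rose by 0.81 ± 0.14 (adjusted p = 0.000695) and 1.18 ± 0.25 (adjusted p = 0.0027), and the pocket protein gene Rbl1, another repressor, by 0.52 ± 0.13 (adjusted p = 0.00824). Of 11 genes that pass histones and DNA methylation on to new DNA, 10 rose, among them the histone chaperone genes Nasp (0.64 ± 0.13, adjusted p = 0.00164) and Asf1a (0.49 ± 0.11, adjusted p = 0.00304) and the histone-binding Rbbp7 (0.84 ± 0.20, adjusted p = 0.00518). Of 7 genes of alternative clamp loading and clamp modification, 4 rose, with the smallest p for the ubiquitin-conjugating enzyme gene Ube2n (0.39 ± 0.08, adjusted p = 0.00216), the deubiquitinase gene Usp1 (0.58 ± 0.13, adjusted p = 0.00293) and the PCNA unloader gene Atad5 (0.54 ± 0.13, adjusted p = 0.00534). Of 15 genes of sister chromatid cohesion 1 was called, Esco2, an acetyltransferase that establishes cohesion in S phase (1.06 ± 0.19, adjusted p = 0.000813). That share was not above the one of all genes, and the median of the list was 0.20.

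Genes of mitosis rose alongside. All 12 mitosis markers were called higher, against 10.6% of all genes tested, with a median log2 fold change of 0.71. Mki67, which encodes the proliferation antigen Ki-67, rose by 1.03 ± 0.18 (adjusted p = 0.000692) and the spindle checkpoint gene Bub1b by 0.96 ± 0.18 (adjusted p = 0.00114). For Bub1b all 11 deficient lymphomas (229 to 439 CPM) lay above the 12 sufficient ones (73.1 to 222 CPM). Of all genes tested, 0.0907% showed such a separation in this direction. Ccnb2, a mitotic cyclin gene, rose by 0.71 ± 0.14 (adjusted p = 0.00157). Whether the mitosis genes rose more than the replication genes was not tested.

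The authors' deposited table gave the same count for the 56 genes, 33 at an adjusted p under 0.05 and higher and 0 lower, and these were the same 33 genes. Of all genes, the authors' deposited table has 11% at that threshold and higher. For Dna2 the authors' deposited table lists a log2 fold change of 2.14.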

How the data were processed

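RNA of purified B lymphoma cells was made into TruSeq libraries, per the labels' protocols. The authors deposited raw counts per gene for 23 libraries with CPM beside them, and their own log2 fold changes and p-values. The deposited CPM equal count over column total within 5e-04, and the counts were used. Per the submitters' processing notes, builds mm10 and GRCm38 and limma were used. Which aligner, counting tool and strand setting were used the sources used here do not give. The column of sufficient lymphoma 4 was matched by its number, since its suffix differs from the label. It is not stated whether the column of sufficient lymphoma 1 holds 1 or both of its libraries. No libraries of a group agreed within sampling noise (lowest chi-square per degree of freedom 31.1).

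Counts were tested with edgeR 4.0.16 (R 4.3.3): filterByExpr removed 120 genes, TMM scaling, the robust quasi-likelihood test with terms for run and group, and Benjamini-Hochberg adjustment over 11020 genes. A gene is called, or said to rise or fall, at an adjusted p under 0.05. CPM are TMM-scaled, values given as 3 in a row are the lowest, median and highest library, the SE of a log2 fold change (±) is |log2 fold change| / √F, and log2 CPM use a prior count of 2. limma 3.58.1 and DESeq2 1.42.0 were alternatives, beside other scalings, filters, single runs, a replicate block and leaving out each library. The script was tested on simulated data. Exons are from GENCODE on GRCm38, promoters from RefSeq on GRCm38.p6, read for exact matches on both strands.

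The lowest, median and highest library are given for the 12 members with the smallest p, Mcm2 to Mcm7, Pcna, Ccne1, Ccne2, E2f1, E2f2, Gmnn, Cdt1 and any member called lower, and up to 3 genes of each other list are named with their test. Orc1, Cdkn1a and Cdkn1b were added after their values were seen. The members and lists were chosen with earlier results of these data known.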

Additional observations from a re-analysis of the deposited data

Results flagged for a closer look

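In 7 of 224 sets (3.12%) of 1 gene in the libraries of 1 group and run, the highest or lowest library stood apart from the rest by its gap over the range of the set. Chance alone flags about 1 in 20. Among the sufficient lymphomas of run 1, Orc6 was low in lymphoma 7 (26.8 CPM, with the nearest library at 59.7 CPM) and Mcm4 in lymphoma 3 (250 CPM, nearest 326 CPM). In the same set of libraries Mcm8 was high in lymphoma 5 (38 CPM, nearest 27 CPM), Rpa2 in lymphoma 2 (151 CPM, nearest 108 CPM) and Chaf1b in lymphoma 6 (51.9 CPM, nearest 39.8 CPM). In run 2, Rrm2 was low in sufficient lymphoma 10 (89 CPM, nearest 222 CPM) and Prim2 in deficient lymphoma 6 (25.7 CPM, nearest 40.3 CPM). Each library gave 1 of the 7.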

How the results depend on the processing

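The count of 33 genes called higher was 33 with DESeq2's size factors, with upper quartile scaling, with no filter and with at least 10 counts in every library, 34 with limma-voom, 36 with DESeq2 and 40 with scaling to the column total alone. That last scaling moved the median of all genes to a log2 fold change of 0.06 and the genes called higher and lower from 1163 and 1285 to 1608 and 1027. It was 17 with no run term (786 genes of the table higher and 967 lower), 18 at an adjusted p under 0.01 (465 and 562), 0 in run 1 alone (0 and 0) and 8 in run 2 alone (629 and 730), where fewer libraries entered. Leaving out 1 library gave 30 to 37 members higher and 0 lower, with 828 to 1337 genes higher and 1056 to 1446 lower. Without the 5 libraries with both Xist and Y-linked transcripts above 5 CPM, 1 member was called lower. In that fit 966 genes of the table were called higher and 1058 lower. With the replicate number as a block, 30 were called (not Orc2, Gins3 and Pole2), with 892 genes of the table higher and 940 lower. The labels do not state that the numbers pair the lymphomas. Correlations of the deviations of same-numbered libraries ran from -0.246 to 0.232, with 4 of 11 over 0.1. They cannot decide the question, since a pairing need not show in expression.

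The log2 fold change changed sign for members that were not called. In run 1 alone it was -0.018 for Pole4, -0.059 for Rpa3, -0.0067 for Fen1 and 0.015 for E2f2, and in run 2 alone -0.27 for Ccne1. With no run term it was -0.035 for Rpa3 and -0.020 for Fen1, and with column totals alone 0.0014 for Rpa1 and 0.038 for E2f2. E2f2 was at 0.017 with limma-voom and 0.077 with the replicate block. Leaving out 1 library, E2f2 ran from -0.096 to 0.051 (0.00047 without sufficient lymphoma 6 and 0.051 without sufficient lymphoma 12) and Ccne1 from -0.031 (without deficient lymphoma 7) to 0.20. The share of promoters with an E2F motif was 19% in the 250 bases before the start alone, against 3.35% for genes in the count table. Except where the number of libraries shows it, the cause was not tested.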
